A study of Mus musculus with 12 samples.

Results

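Microglia are the resident macrophages of the brain. They depend on signalling through the receptor encoded by Csf1r, survey their surroundings with receptors for purines (P2ry12) and for the neuronal chemokine fractalkine (Cx3cr1), and make the C1q proteins that start the classical complement cascade and tag synapses and debris for removal. The 9 genes described here (Csf1r, Cx3cr1, P2ry12, Trem2, C1qa, C1qb, C1qc, Ctss and Aif1) were chosen by name as genes that mark these cells. They are 9 of 20095 gene symbols in a pair of deposited junction tables from mouse neocortex, and all 9 were listed in both tables. The tables held 157 and 75 rows with these symbols, at 154 and 75 distinct junctions, of which 53 and 50 were introns annotated to these genes and were used.

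The study sequenced polyadenylated RNA of wild-type NMRI mice in 6 groups of 2 libraries. The tissue groups were neocortex of pups at postnatal day 10 (P10) and of adults at postnatal day 49 (P49). Neocortical cells dissociated from E16.5 embryos were cultured for 14 days and then left untreated (control culture) or given DRB, an inhibitor of transcription elongation, for 2 hours at 50 uM (first DRB group). In a second experiment such cultures received DRB alone at that dose and time (second DRB group) or DRB with bicuculline, a GABA-A receptor blocker that raises network activity, for 1 hour at 20 uM. No microglia were sorted, so every value is a gene's share of the spliced reads of mixed cells. The cultures came from the embryonic neocortex and were labelled only as primary neocortical cells. Libraries could be told apart only by group, and the numbers 1 and 2 follow the order of the columns. Column names give the P10, first DRB and bicuculline groups. The columns taken as control begin with C and those taken as P49 with CX, names that do not state the group, and they were placed by elimination. The columns taken as the second DRB group are named ctl. They were placed there because the labels tie only cultures given DRB, alone or with bicuculline, to that table, so the comparison with bicuculline rests on this reading. The labels do not say that libraries of one group are separate animals or cultures. The p-values therefore reflect only how these libraries scatter, and that scatter may be technical.

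Each library held 48667124 to 72429673 spliced reads. Values are counts of reads across the annotated introns of a gene, as counts per 1e6 such reads (CPM, scaled by edgeR's TMM factors). They do not compare genes with different numbers of introns. For order among genes the most-read single junction of each gene was used instead. The deepest gene over the 8 libraries of the first table was Csf1r, with 48160 reads, and the shallowest was Cx3cr1, with 2395. In the second table P2ry12 had 33 reads in all and Cx3cr1 had 159. A change was called at an adjusted p of 0.05.

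The genes differ in structure, and 2 of them have a choice of splice site inside their coding sequence that the reads resolve. Trem2, a lipid-sensing receptor, lies on the plus strand at chr17:48346401-48354147 (mm10). Its exon 4 can start at either of a pair of acceptors. The sequences are from GENCODE release M21, and show the last 30 coding bases of exon 3 joined to exon 4, with the 55 bases that only the upstream acceptor includes in capitals. The upstream form starts exon 4 at position 48351691 and has 747 coding bases in its annotated transcript. The downstream form starts it at position 48351746 and has 681 coding bases.
Trem2 upstream acceptor: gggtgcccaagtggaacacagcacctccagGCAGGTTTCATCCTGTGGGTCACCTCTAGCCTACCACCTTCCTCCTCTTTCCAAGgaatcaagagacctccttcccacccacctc
Trem2 downstream acceptor: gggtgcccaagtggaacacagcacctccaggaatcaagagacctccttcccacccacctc

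Ctss, which encodes the lysosomal protease cathepsin S, lies on the plus strand at chr3:95526786-95556403. Its exon 2 has acceptors 3 bases apart, at positions 95529434 and 95529437. The sequences start at the first coding base of exon 1 and run into exon 2, with the 3 bases of the upstream acceptor in capitals.
Ctss upstream acceptor: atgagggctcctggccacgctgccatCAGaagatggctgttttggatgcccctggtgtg
Ctss downstream acceptor: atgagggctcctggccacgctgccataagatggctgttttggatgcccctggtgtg

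C1qa (4:136895917-136898803), C1qb (4:136880129-136886187) and C1qc (4:136889804-136893065) encode the chains of C1q and lie side by side on the minus strand of chromosome 4. The bases before the RefSeq start sites of C1qb and C1qc (GRCm38.p6, printed on the gene's strand) each hold 1 match to GAGGAA, the core of the element bound by the macrophage transcription factor PU.1, searched on both strands and shown in capitals. For C1qc only the 99 bases upstream of its annotated first exon are printed. The motif was found in the 250 bases before the start of 5 of the 7 genes searched, and in 23.3% of 32851 such windows over all genes. Csf1r was left out of the search, and C1qa had no promoter sequence to search. A match is a description of the letters only.
C1qb promoter, chr4:136886201-136886450: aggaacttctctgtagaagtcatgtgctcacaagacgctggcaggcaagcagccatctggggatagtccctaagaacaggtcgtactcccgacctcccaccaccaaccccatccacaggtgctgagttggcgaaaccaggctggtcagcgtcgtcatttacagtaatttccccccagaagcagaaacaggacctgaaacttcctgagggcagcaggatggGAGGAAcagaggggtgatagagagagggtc
C1qc promoter, chr4:136893066-136893164: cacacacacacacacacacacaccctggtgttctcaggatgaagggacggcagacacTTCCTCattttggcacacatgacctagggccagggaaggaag

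The first question was how the 9 genes change between the developing and the adult neocortex. Ctss rose and P2ry12 fell from P10 to P49, and the other 7 did not pass the test. Calls were thus made for 2 of 9 genes, against 56.2% of all 15589 genes tested (27.8% higher and 28.4% lower). Ctss stood at 53.2 and 52.8 CPM in the P10 libraries and at 76.1 and 83.1 CPM in the P49 libraries. Its groups did not overlap, and the rise was 1.50-fold (log2 change 0.59, SE 0.08, adjusted p = 5.2e-05). P2ry12, the receptor for ADP that steers microglial processes, stood at 14.8 and 12.6 CPM at P10 and at 9.68 and 8.46 CPM at P49. It was 1.51-fold lower in the adult (log2 change -0.59, SE 0.13, adjusted p = 0.0018), again with no overlap. Csf1r, Cx3cr1, C1qa, C1qb and C1qc, which were not called, did not overlap between the ages either. Lack of overlap thus does not set Ctss and P2ry12 apart.

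Csf1r was at 187 and 174 CPM at P10 and at 162 and 164 CPM at P49. These were the highest sums of the 9 genes in every tissue library, and the adjusted p was 0.14. Cx3cr1 was at 7.38 and 7.62 CPM at P10 and at 5.51 and 5.31 CPM at P49 (log2 change -0.47, SE 0.22, adjusted p = 0.095). The C1q chains did not share a direction. C1qa had a log2 change of 0.32 (SE 0.13, adjusted p = 0.056), C1qb of 0.16 (SE 0.13) and C1qc of -0.25 (SE 0.15). Trem2 had a log2 change of 0.21 (SE 0.16), and its P49 libraries, at 11.4 and 8.51 CPM, overlapped the P10 libraries at 9.41 and 7.83 CPM. Aif1, which encodes the calcium-binding protein IBA1 used to stain microglia, was at 24.3 and 27.1 CPM at P10 and at 24.3 and 19.0 CPM at P49. A fit on the P10 and P49 libraries alone called 5 genes, adding C1qa (adjusted p = 0.039), Csf1r (0.044) and Cx3cr1 (0.0078). Without P10 library 1 the count was 4, with C1qa (0.046) and Aif1 (0.04) added.

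Other microglial genes moved in both directions over the same interval. Of 22 further microglia markers, 1 rose and 5 fell, with a median log2 change of -0.26 against 0.00 over all genes. Over all genes 27.8% were called higher and 28.4% lower, so the counts of each list are given as a description. Mertk, a phagocytic receptor that astrocytes also express, rose 2.36-fold from 23.3 ± 0.69 to 54.9 ± 4.21 CPM (mean ± SD, n = 2; adjusted p = 6.3e-07). Spi1, which encodes PU.1, fell 2.12-fold, from 5.33 ± 0.28 to 2.51 ± 0.21 CPM (adjusted p = 0.00015). Markers of macrophages at the brain's borders fell in 5 of 8 cases, among them Mrc1 (2.17-fold, adjusted p = 2.9e-05) and Lyve1 (2.52-fold, adjusted p = 0.0026). Their summed level was 31.0 to 39.4 CPM at P10 and 17.6 to 22.0 CPM at P49, and its part in the values above was not tested. The ligands of CSF1R and CX3CR1 rose in 3 of 3 cases, with Csf1 going from 6.81 ± 0.21 to 10.8 ± 0.83 CPM (adjusted p = 0.00017) and Cx3cl1, the fractalkine gene, from 135 ± 5.17 to 168 ± 6.62 CPM (adjusted p = 0.00036). Complement genes outside the C1q chains rose in 6 of 12 cases and fell in 0, with Cd59a and C4b at adjusted p = 1e-05 and 2.2e-05.

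**Figure D1:**
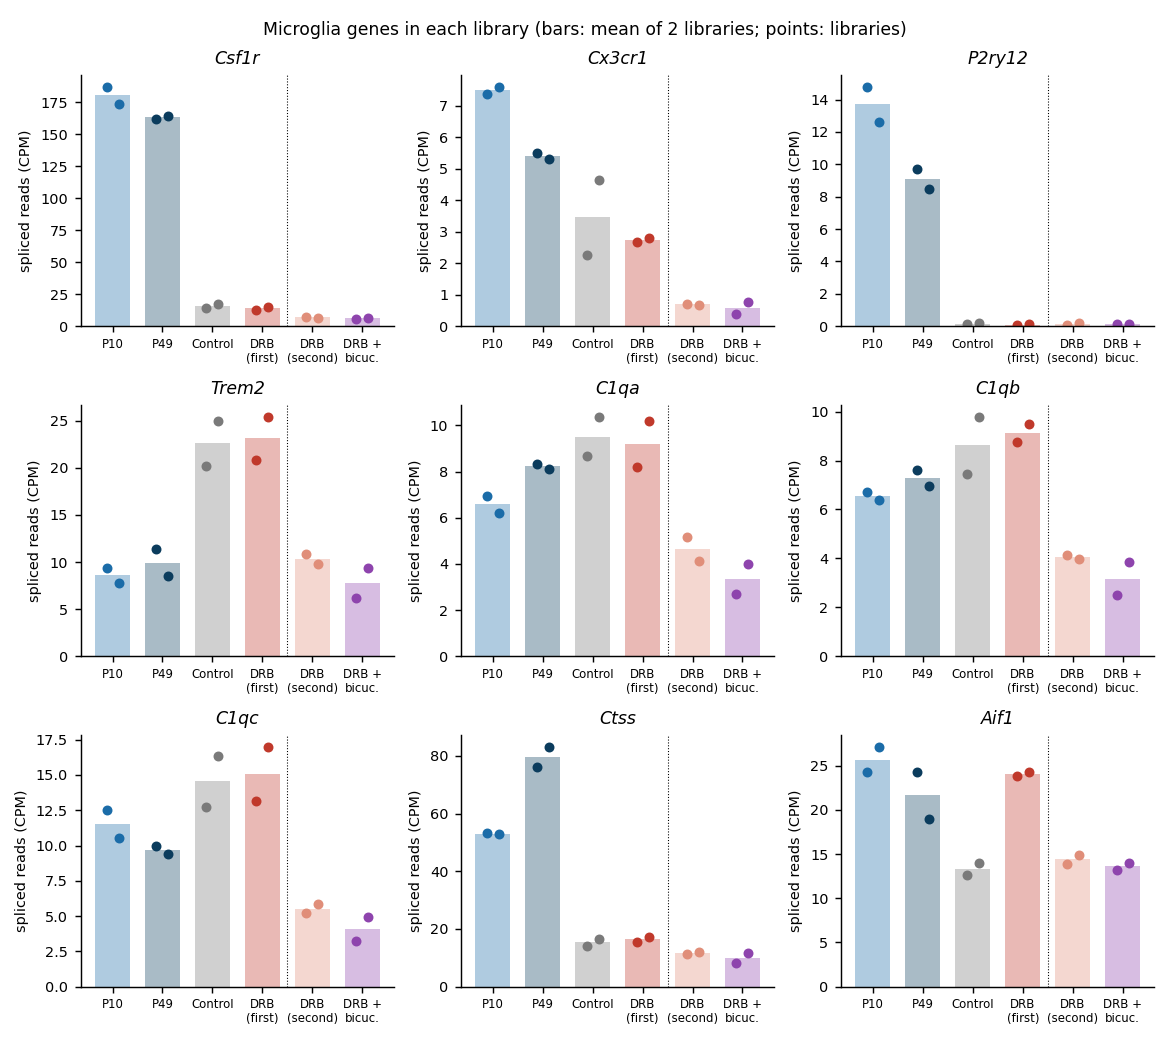
Spliced reads (CPM) of each microglia gene in the 12 libraries; bars are group means of 2 libraries, points are libraries, and the dotted line separates the pair of tables, which were scaled separately. Csf1r, P2ry12 and Ctss are high in tissue and low in culture, whereas Trem2 is higher in control cultures (20.2 and 25.0 CPM) than in any tissue library.

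The second comparison set the control cultures against tissue. Culture did not lower the 9 genes as a block. Csf1r, Ctss, P2ry12, Cx3cr1 and Aif1 were lower in control cultures than at P10, Trem2, C1qa and C1qb were higher, and C1qc did not pass the test. Calls were made for 8 of 9 genes against P10 (P2ry12 among them, which passed the filter on low counts only through tissue, where it is high), where 73.7% of all genes were called (36.8% higher, 36.9% lower). Against P49 they were made for 7 of 9, again with P2ry12 among them. There 75.9% of all genes were called (39.1% higher, 36.8% lower). Since both comparisons use the same 2 control libraries, they are given side by side and are not independent. In these bulk samples fewer cells of a type and less RNA per cell cannot be told apart, nor can culture be told apart from the embryonic origin of the cells.

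Of the 4 receptors, 3 were lower in culture, by amounts from 2.16-fold to 87.2-fold, and Trem2 was higher. P2ry12 had 987 and 908 reads in the P10 libraries, 628 and 487 in the P49 libraries, and 7 and 10 in the control cultures. That is 0.135 and 0.174 CPM in culture, 87.2-fold lower than at P10 (log2 change -6.45, SE 0.21) and 57.7-fold lower than at P49. Because P2ry12 had to be high in tissue to be tested, these are given as a description. By its most-read junction, chosen on reads that came mostly from tissue, the log2 changes were -7.25 and -6.68. Over its 3 introns with at least 50 reads they ran from -7.29 to -3.78 against P10. Against P49 they ran from -6.73 to -2.45. Csf1r was at 13.9 and 17.2 CPM in control cultures, 11.6-fold lower than at P10 (log2 change -3.53, SE 0.09, adjusted p = 3.3e-11) and 10.5-fold lower than at P49 (adjusted p = 2.3e-11). Cx3cr1 was at 2.27 and 4.64 CPM, 2.16-fold lower than at P10 (adjusted p = 0.0011) and 1.56-fold lower than at P49 (adjusted p = 0.029). The 2 control libraries lay far apart in Cx3cr1. Its log2 change against P10 was -1.11, and it was -1.72 without control library 2 and -0.69 without control library 1 (adjusted p = 1e-05 and 0.002). Against P49 it was -0.64, and -1.25 without control library 2. The call against P49 was lost without control library 1 (log2 change -0.22, adjusted p = 0.2) or without P49 library 1 (adjusted p = 0.067). Trem2, at 20.2 and 25.0 CPM, was 2.63-fold higher than at P10 (log2 change 1.39, SE 0.16, adjusted p = 7.2e-06) and 2.27-fold higher than at P49 (adjusted p = 2.6e-05).

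The C1q chains stood at or above their tissue levels. C1qa was at 6.96 and 6.20 CPM at P10, 8.34 and 8.13 CPM at P49 and 8.66 and 10.4 CPM in control cultures. It was 1.45-fold higher in culture than at P10 (log2 change 0.54, SE 0.13, adjusted p = 0.0032), and the difference from P49 did not pass (adjusted p = 0.16). C1qb was at 6.71 and 6.41 CPM at P10, 7.63 and 6.96 CPM at P49 and 7.45 and 9.79 CPM in culture. Its 1.32-fold difference from P10 (adjusted p = 0.017) was lost without control library 2 (0.23) or P10 library 2 (0.062). C1qc was at 12.5 and 10.5 CPM at P10, 9.99 and 9.41 CPM at P49 and 12.7 and 16.4 CPM in culture. It was 1.50-fold higher than at P49 (adjusted p = 0.0036, but 0.06 without control library 2) and missed the threshold against P10 (adjusted p = 0.054), which it passed without control library 1 (0.02) or without P10 library 1 (0.021).

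Ctss and Aif1 were both lower in culture. Ctss was at 14.2 and 16.4 CPM in control cultures, 3.45-fold lower than at P10 (log2 change -1.79, SE 0.08, adjusted p = 2.8e-09) and 5.19-fold lower than at P49 (adjusted p = 1.9e-10). By its most-read junction the log2 change of Ctss against P10 was -2.39 (adjusted p = 5.3e-12). That junction was chosen on reads summed over all libraries, which came mostly from tissue. It lay near the extreme of the 8 Ctss introns, which were all lower, with log2 changes from -2.40 to -0.92. Aif1 was at 12.7 and 14.0 CPM, 1.93-fold lower than at P10 (log2 change -0.95, SE 0.11, adjusted p = 1.2e-05) and 1.62-fold lower than at P49 (adjusted p = 0.00015).

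**Figure D2:**
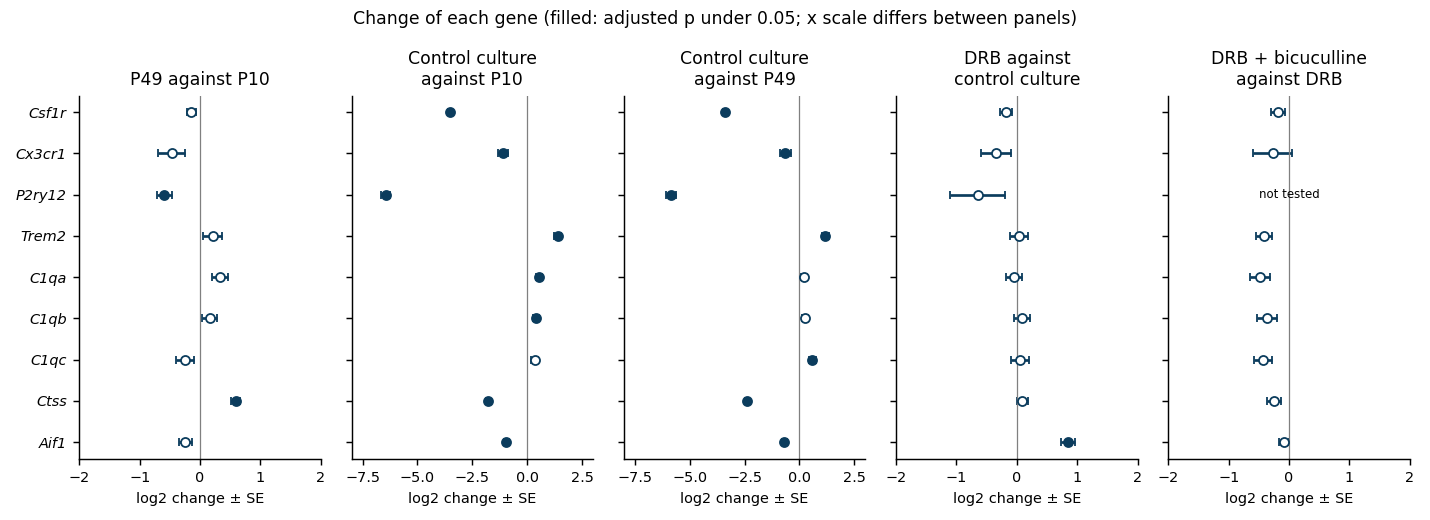
Log2 change ± SE (edgeR) of each microglia gene in the 5 comparisons; filled points passed an adjusted p of 0.05, and the x axis differs between panels. Against P10 the control cultures range from a log2 change of -6.45 for P2ry12 to 1.39 for Trem2, while under DRB only the point of Aif1 is filled. P2ry12 passed the filter on low counts only through tissue, where it is high.

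The order of the genes changed with these shifts. By the most-read junction, Csf1r (14.6 ± 0.54 CPM), P2ry12 (12.9 ± 1.41 CPM) and Ctss (10.0 ± 0.15 CPM) came first at P10, where Csf1r and P2ry12 did not differ beyond their spread, and Trem2 came last at 2.83 ± 0.45 CPM. Between them lay Cx3cr1 (7.50 ± 0.17 CPM), then C1qc, Aif1 and C1qa, which overlapped at 6.02 to 6.29 CPM, and C1qb at 3.504 ± 0.20 CPM. At P49 the order was led by Ctss (14.5 ± 0.14 CPM) and Csf1r (13.7 ± 0.37 CPM), and Trem2 (3.39 ± 0.92 CPM) and C1qb (3.84 ± 0.07 CPM), which overlapped, came last. In control cultures C1qa (8.08 ± 1.02 CPM), C1qc (7.68 ± 1.96 CPM) and Trem2 (7.37 ± 1.41 CPM) led and did not differ beyond their spread, followed by C1qb at 4.60 ± 0.92 CPM. Aif1 (3.60 ± 0.14 CPM) and Cx3cr1 (3.46 ± 1.68 CPM) overlapped, and Ctss (1.90 ± 0.29 CPM), Csf1r (1.16 ± 0.14 CPM) and P2ry12 (0.0820 ± 0.0070 CPM) followed. Csf1r thus moved from first at P10 to rank 8 of 9 in culture. The order under DRB was led by C1qc (8.43 ± 0.90 CPM), C1qa (7.93 ± 1.26 CPM) and Trem2 (7.10 ± 0.11 CPM), where C1qa overlapped the other two but C1qc and Trem2 did not overlap each other, with Aif1 next at 6.08 ± 0.0022 CPM. In the second experiment C1qa (4.22 ± 0.62 CPM) and Aif1 (4.01 ± 0.18 CPM) led with DRB alone and Aif1 (4.04 ± 0.12 CPM) led with bicuculline. P2ry12 was last in all 4 culture groups. Over the 8 libraries, log2 levels of Csf1r correlated at 0.998 with P2ry12, 0.971 with Ctss and -0.958 with Trem2, and C1qa at 0.89 with C1qb. These values describe mainly the split of 4 tissue and 4 culture libraries.

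The rest of the microglial programme divided in the same comparison. Of 22 further microglia markers, 14 fell and 3 rose in control cultures against P10 (median log2 change -0.84, against 0.00 over all genes). For this list and those that follow, the shares over all genes were 36.8% higher and 36.9% lower. Itgam, which encodes the CD11b subunit of complement receptor 3, fell 10.6-fold from 43.2 ± 0.82 to 4.09 ± 0.39 CPM (adjusted p = 2.9e-11). Siglech was at 6.25 ± 0.54 CPM at P10 and 0.00870 ± 0.012 CPM in culture, and passed the filter only through tissue. The counts of list members given here include genes that passed the filter through 1 side of a comparison only. Some markers were picked after their values were seen. Tmem119 was at 2.396 CPM at P10 and 0.0261 CPM in culture, P2ry13 at 1.86 and 0.0637 CPM and Selplg at 2.85 and 0.0820 CPM, whereas the lysosomal gene Cd68 was at 9.70 and 30.8 CPM. Tyrobp, whose product is the signalling partner of TREM2, was at 31.7 ± 0.31 CPM at P10 and 44.1 ± 9.42 CPM in culture.

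Genes of the lipid and phagocytosis state, which TREM2 signalling is known to promote, rose in 10 of 11 tested cases in culture against P10 (median log2 change 2.31) and in 11 of 11 against P49. Gpnmb was at 0.493 ± 0.088 CPM at P10 and 151 ± 13.1 CPM in culture (adjusted p = 3.2e-12), and Cd63 at 51.3 ± 0.42 and 254 ± 1.99 CPM (adjusted p = 4.7e-12). These genes are also expressed outside microglia. Complement genes rose in 10 of 12 cases. C3, the central component, was at 0.838 ± 0.32 CPM at P10 and 362 ± 27.1 CPM in culture (adjusted p = 4e-12). The 2 ligands of CSF1R moved in opposite directions. Csf1 was 13.7-fold higher in culture than at P10 (93.4 ± 8.53 CPM, adjusted p = 3.9e-11), and Il34, the ligand made mainly by neurons, was 23.2-fold lower (0.656 ± 0.056 against 15.3 ± 0.42 CPM, adjusted p = 6e-11). Lysosomal cathepsins and their inhibitors rose in 9 of 11 cases. Ctsd was 3.90-fold higher (adjusted p = 9.3e-11) and Ctsk 32.5-fold lower (adjusted p = 8.4e-11), 1 of the 2 that fell as Ctss did. Purine receptors and enzymes moved both ways, with 2 higher (P2rx4 2.07-fold) and 2 lower (Entpd1 2.11-fold). Inflammatory genes rose in 6 of 9 cases, among them Cxcl10 (6.95 ± 0.47 CPM in culture against 0.0728 ± 0.024 CPM) and Ccl3 (4.58 ± 0.92 against 0.157 ± 0.073 CPM), which passed the filter only through culture.

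Markers of other cells moved with the same split. The 8 neuron markers summed to 7446 to 7555 CPM at P10 and 2565 to 2698 CPM in control cultures, and the 8 astrocyte markers to 1506 to 1619 and 2092 to 2141 CPM. Of the neuron markers 7 were called lower and 1 (Gad1) higher. Of 7 astrocyte markers tested, 5 were called higher and 2 (Slc1a2 and Aldoc) lower. Slc1a3 alone went from 331 ± 0.44 to 1028 ± 2.24 CPM. The 8 blood markers summed to 28.2 to 35.9 CPM at P10, 17.7 to 18.9 CPM at P49 and 0.116 to 0.139 CPM in control cultures, where 6 of the 8 were at 0, the haemoglobin gene Hbb-bs among them. Hbb-bs alone was at 30.8 ± 5.35 CPM at P10 and 17.1 ± 1.00 CPM at P49, which is most of those sums. Border macrophage markers summed to 21.8 to 24.2 CPM in control cultures, of which Mrc1 made up 16.8 ± 2.11 CPM. Of the 8, 6 were called lower and 1 higher in culture than at P10 (median log2 change -3.80). Ms4a7 of that list was 5.33-fold higher in culture than at P10 (adjusted p = 1.4e-07) and F13a1 was at 3.46 ± 0.95 CPM at P10 and 0.110 ± 0.0079 CPM in culture. The part of these cells in the values of the 9 genes was not tested.

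**Figure D3:**
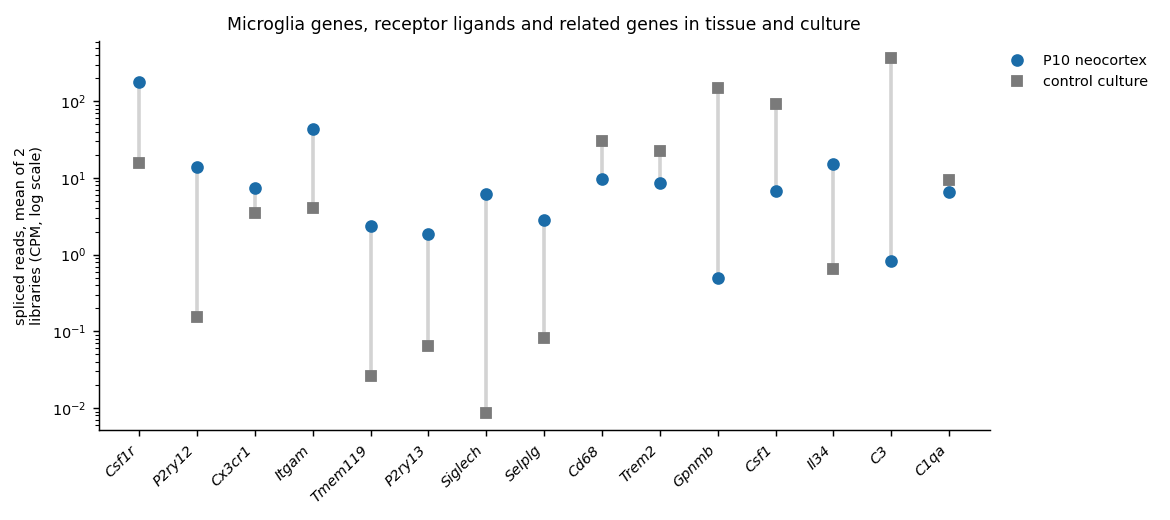
Mean spliced reads (CPM, log axis, 2 libraries each) at P10 and in control cultures for 5 of the 9 genes and for further microglia, ligand, complement and phagocytosis genes, some of them picked after their values were seen. P2ry12, Tmem119 and Siglech drop below 1 CPM in culture, whereas Trem2, Cd68, Gpnmb, Csf1 and C3 are higher.

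The third comparison asked what happens to these transcripts when transcription is blocked. After 2 hours of DRB, Aif1 was higher than in control cultures and was the only one of the genes called. That is 1 of 9 genes, against 62.1% of all genes tested (29.4% higher, 32.7% lower). Values are shares of spliced reads, so a general loss of RNA would not show. Aif1 stood at 12.7 and 14.0 CPM in control cultures and at 23.8 and 24.3 CPM under DRB. The groups did not overlap, and the rise was 1.80-fold (log2 change 0.85, SE 0.11, adjusted p = 5e-05). It was present along the whole gene, as the 6 Aif1 introns with enough reads had log2 changes of 0.73 to 1.02.

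None of the other 8 genes passed the test. C1qa was at 8.18 and 10.2 CPM under DRB (log2 change -0.05, SE 0.13), C1qb at 8.77 and 9.49 CPM (0.08, SE 0.13), C1qc at 13.2 and 17.0 CPM (0.05, SE 0.15) and Trem2 at 20.8 and 25.4 CPM (0.03, SE 0.15). All 4 overlapped their controls. Ctss was at 15.5 and 17.2 CPM (log2 change 0.09, SE 0.09) and Csf1r at 12.8 and 14.7 CPM (-0.18, SE 0.10, adjusted p = 0.14). Cx3cr1, at 2.67 and 2.80 CPM, had a log2 change of -0.35 (SE 0.25). Without control library 2 it turned to 0.27 (adjusted p = 0.19). Without control library 1 it became -0.76 (adjusted p = 0.0017) and Csf1r also passed (-0.32, adjusted p = 0.014), which gave 3 called genes. P2ry12 had 4 and 7 reads under DRB against 7 and 10 in the controls. It entered the test only through its tissue libraries, and its change was not measurable at this depth. By its most-read junction alone Ctss was higher under DRB (log2 change 0.60, adjusted p = 0.0011), while 4 of its 8 introns had a positive change and 4 a negative one.

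All 9 genes were higher in library 2 than in library 1 of the control cultures (median log2 difference 0.30) and of the first DRB cultures (0.20), where 49.2% and 50.4% of all genes were. For 6 of the 9 genes the log2 change under DRB was smaller in size than that median difference between the control libraries. In the tissue groups 2 of 9 were higher in library 2.

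Lists of related genes had more members that fell than rose under DRB, among those given here, except the border macrophage and neuron markers, and the ligands, of which 1 rose and 1 fell. Over all genes 32.7% were called lower and 29.4% higher, so the counts of each list are given as a description. Of the 22 further microglia markers 8 fell and 0 rose (median log2 change -0.52, against -0.03 over all genes). Sall1, a transcription factor that maintains microglial identity, fell from 8.47 ± 0.19 to 2.15 ± 0.14 CPM (3.94-fold, adjusted p = 1.6e-07). Its control level was 1.91-fold above P10 (4.43 ± 0.12 CPM, adjusted p = 1.8e-05), where 14 markers of its list were lower and 3 higher. Which cells carried Sall1 in culture was not tested. The interferon regulatory factor Irf8 fell from 3.59 ± 0.56 to 1.46 ± 0.15 CPM (2.47-fold, adjusted p = 3.5e-05). Inflammatory genes fell in 5 of 9 cases and rose in 0, with the chemokine Ccl4 going from 3.04 ± 0.35 to 0.326 ± 0.20 CPM (adjusted p = 2.9e-05) and Tnfaip3 from 4.39 ± 0.25 to 1.47 ± 0.49 CPM (adjusted p = 3.6e-05). Csf1 fell 3.37-fold (adjusted p = 5.1e-08), and Cx3cl1 rose 1.66-fold (adjusted p = 5e-07). Genes of the lipid and phagocytosis state fell in 3 of 11 cases and rose in 1, with Axl and Cd63 lower (adjusted p = 1.5e-06 and 6.2e-05). Purine receptors and enzymes fell in 4 of 6 cases, among them Entpd1 and P2rx7 (adjusted p = 3e-05 and 0.0001). Complement genes fell in 5 of 12 cases, led by C3ar1 (3.09-fold, adjusted p = 5.9e-05). Border macrophage markers rose in 2 of 8 cases (Ms4a7 1.71-fold, Pf4 1.56-fold, adjusted p = 0.00069 and 0.033). Neuron markers rose in 8 of 8 cases and summed to 5083 to 5281 CPM under DRB against 2565 to 2698 CPM in controls, and their part in the result was not tested.

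The last comparison added bicuculline to DRB, to ask whether network activity alters the transcripts without new transcription. No microglia gene was called among the 8 tested (P2ry12, at 5 and 13 reads with DRB alone and 8 and 7 with bicuculline, was too low). Over all 14390 genes 0.208% were called. DESeq2 also called 0 of these genes, whereas Trem2 was called with no filter (adjusted p = 0.011) or with the letters in the column names as a block (adjusted p = 0.002). Unadjusted, 5 of the 8 had a p under 0.05, all lower with bicuculline (Trem2, C1qa, C1qc, Ctss and C1qb), where 1.9% of all genes were lower at that p. All 8 log2 changes were below 0, as were 50.7% over all genes. That of Cx3cr1 turned to 0.16 without bicuculline library 1.

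The separation came mainly from library 1 of the bicuculline group. Trem2 was at 10.8 and 9.83 CPM with DRB alone and at 6.18 and 9.38 CPM with bicuculline (log2 change -0.41, SE 0.13, adjusted p = 0.65). C1qa was at 5.16 and 4.14 CPM against 2.70 and 3.99 CPM (log2 change -0.48, SE 0.16, adjusted p = 0.79). C1qc was at 5.21 and 5.84 CPM against 3.26 and 4.96 CPM, and C1qb at 4.15 and 3.97 CPM against 2.49 and 3.86 CPM. These 4 genes did not overlap between the groups, a pattern that 14.7% of all genes showed in the lower direction. Ctss was at 11.5 and 12.0 CPM against 8.15 and 11.5 CPM, Csf1r at 7.34 and 6.53 CPM against 5.57 and 6.62 CPM, and Cx3cr1 at 0.710 and 0.673 CPM against 0.385 and 0.772 CPM. Aif1 moved least, from 13.9 and 14.9 CPM to 13.2 and 14.0 CPM (log2 change -0.08, SE 0.08). All 8 genes were lower in bicuculline library 1 than in library 2 (median log2 difference 0.58, against 51.2% of all genes higher in library 2). Without bicuculline library 2 the test called 4 of them (C1qa, C1qc, Ctss and Trem2), without library 2 of DRB alone it called 2 (C1qa and Trem2), and without library 1 of either group it called 0.

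**Figure D4:**
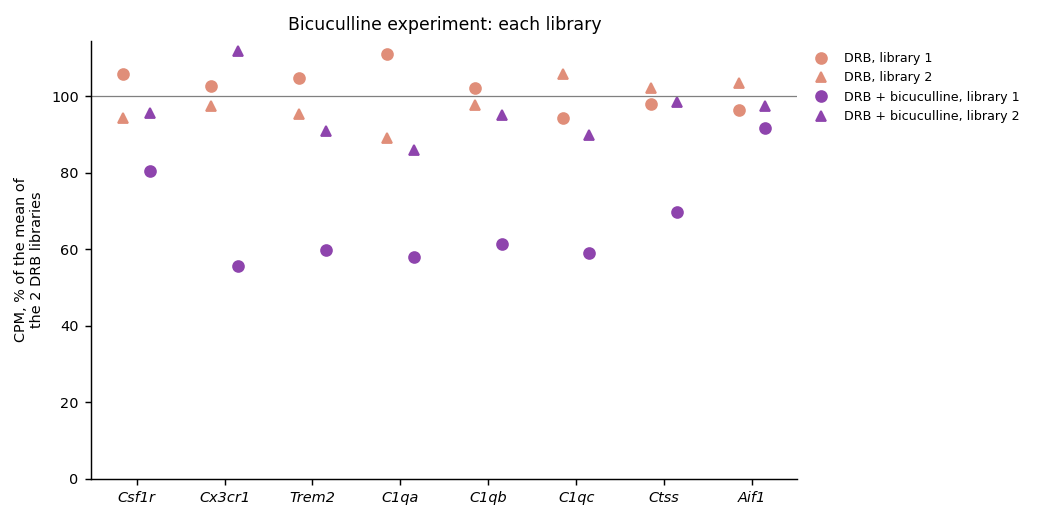
CPM of the 8 tested genes in the 4 libraries of the bicuculline experiment, as a percentage of the mean of the 2 libraries with DRB alone; circles are library 1 and triangles library 2 of each group. Bicuculline library 1 lies lowest for all 8 genes, and library 2 lies near the libraries with DRB alone.

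Of the related lists, called genes in this experiment were Gpnmb (63.9 ± 8.12 to 43.4 ± 3.92 CPM, adjusted p = 4.1e-05), the fatty acid receptor Cd36 (36.0 ± 4.37 to 19.2 ± 7.01 CPM, adjusted p = 0.0004) and Mrc1 (9.77 ± 0.65 to 6.51 ± 1.10 CPM, adjusted p = 0.014). All 3 were lower with bicuculline, and they are 3 of the 4 genes called lower in the whole table. DESeq2 called no gene lower, so these 3 calls did not hold there. The lists were chosen with earlier results of these data known, so this overlap is only a description. None of the 16 further microglia markers tested was called, and 1 had an unadjusted p under 0.05 and was lower. Border macrophage markers summed to 9.29 to 13.1 CPM with bicuculline and 15.2 to 15.7 CPM without, and neuron markers to 4314 to 4536 and 4415 to 4643 CPM. Their part in the values was not tested. The second DRB group had lower levels than the first in 8 of the 9 genes' means, for example 10.3 ± 0.69 against 23.1 ± 3.27 CPM for Trem2. The tables were scaled separately, so this difference was not tested. No share over all genes stands beside that count, and it is only a description.

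The junctions printed above for Trem2 and Ctss, and an upstream intron of Aif1, were looked at after their values were seen and carry no test. The upstream Trem2 acceptor took 11.0% and 10.4% of the reads of both acceptors at P10 (26 of 236 and 21 of 202), and 12.7% and 12.2% at P49. In control cultures it took 10.5% and 8.38%, and in the first DRB cultures 6.62% and 11.5%, so tissue and culture overlapped while the summed level of Trem2 was 2.63-fold higher in control cultures than at P10. In the second experiment it took 0% (0 of 208 reads, 95% Wilson interval up to 1.81%) and 2.69% with DRB alone, and 0.71% and 0.56% with bicuculline. Every library of the second table thus lay below every library of the first. Experiment and table cannot be told apart here, and intervals cover counting error only.

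The upstream Ctss acceptor, which adds 3 bases, took 6.48% and 7.0% of the reads at P10 and 7.30% and 7.54% at P49. It took 6.76% and 13.7% in control cultures and between 12.0% and 15.3% in the 6 libraries given DRB. The interval of control library 1 (3.71% to 11.99%) ended just below that range. The interval of control library 2 (9.05% to 20.2%) took in all of it. Aif1 has an intron upstream of its main first intron, and these 2 introns are consecutive. The same transcript can cross both, so their shares do not measure a choice of splice site. Of the reads across these 2 introns, the upstream one took 12.9% and 20.2% at P10, 13.5% and 7.66% at P49, 37.7% and 25.8% in control cultures and 23.9% to 35.2% in the other 6 culture libraries. The 4 tissue libraries lay below the 8 culture libraries. Of the reads across the main first intron and the next intron, the main one took 42.7% to 46.05% in tissue. In culture it took 26.6% to 37.2%. C1qc had a junction from an unannotated donor inside its first intron that took 4.12% to 10.6% of the reads in all 12 libraries.

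**Figure D5:**
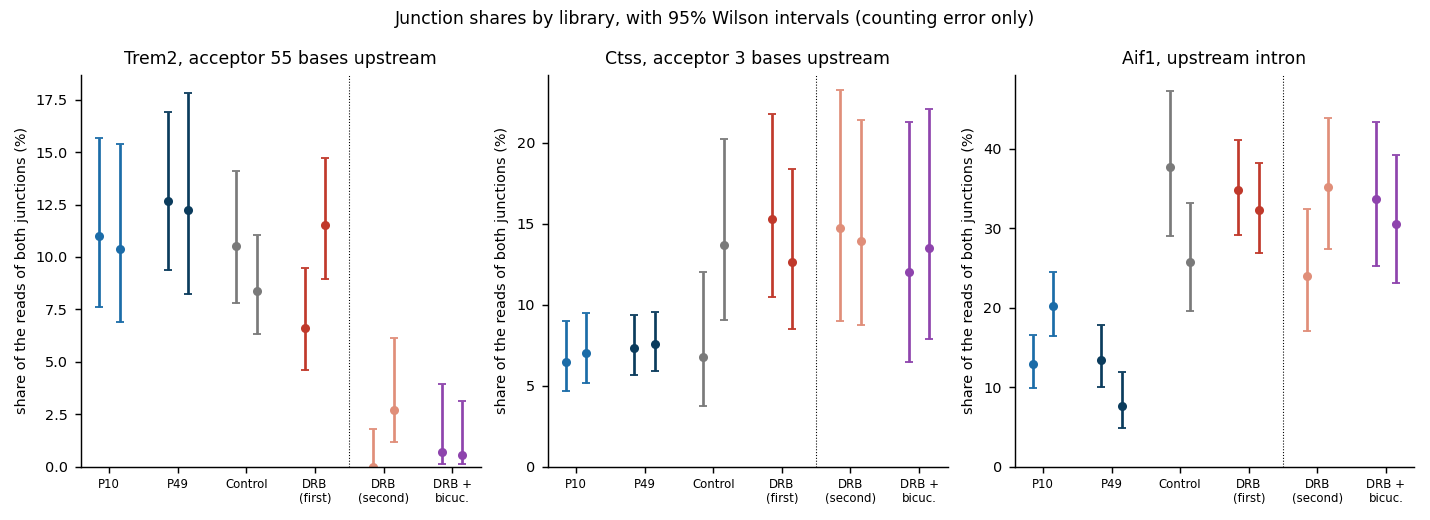
Share (%) of the upstream junction among the reads of both junctions for Trem2, Ctss and Aif1 in each library, with 95% Wilson intervals. The Aif1 junctions are consecutive introns that the same transcript can cross, so that share is not a choice of splice site. The Trem2 share is 6.62% to 12.7% in the first table and at most 2.69% in the second, and the Aif1 share is lower in tissue than in culture.

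A search for genes whose pattern over the 8 libraries was most like the mean standardised pattern of the 9 genes returned Fbxw2 (r = 0.91), Mrps12 (0.90), BC029722, Nptxr, Pdxp, Sirt4, Pcnx3, Fdx1l, 2310009B15Rik and Adra1a (0.84) among 12658 ranked genes. The 9 genes themselves correlated with that mean at only -0.20 (Trem2) to 0.59 (Cx3cr1), and so the mean describes none of them well.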

How the data were processed

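The authors deposited 2 tables of exon junctions with counts of spliced reads per library (raw counts, per the file headers). Libraries were made with a stranded kit for mRNA, per the labels' protocols, and the submitters' processing notes name STAR 2.4.0f1 and the build mm10 (GRCm38). The counter and its filters, and the treatment of reads mapping to several places, are not given in the sources used here. Headers run 3 names longer than the rows (67 names over 64 cells, 39 over 36), and columns were read after that shift. A further 72 columns of per-library values were not used.

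Each distinct intron of GENCODE release M21 was counted once under its annotated gene. Introns listed under P2ry12 but annotated to the overlapping gene Med12l (5 and 6) were left to Med12l, and introns of several genes that could not be assigned (819 and 803) were left out. The introns used held 98.66% to 98.84% of spliced reads. A read across several introns counts once for each.

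The main test was edgeR 4.0.16 in R 4.3.3 with TMM factors and filterByExpr (quasi-likelihood, two-sided, Benjamini-Hochberg over 15589 or 14390 genes), with 1 fit per table over its 8 or 4 libraries. Models were tested on simulated data. The alternatives were DESeq2 1.42.0, no filter, upper-quartile scaling, every junction with the symbol, the most-read junction, only the groups compared, each library left out and a block on the letters in the second table's column names. All 9 genes are named, with up to 2 called genes per list and comparison by p and the 10 genes most like the mean pattern. Of the genes this rule names, 1 is not reported here. The members and lists were chosen with earlier results of these data known. Of the lists, those of oligodendrocyte and endothelial markers, with 9 and 8 genes, had 7 and 5 lower and 1 and 1 higher in control cultures against P10.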

Additional observations from a re-analysis of the deposited data

How the results depend on the processing

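Of 439 log2 changes of the 9 genes under the alternatives, 391 kept their direction and their side of the threshold, 5 lost a call, 29 gained one and 14 changed sign, none of them called either way. For DRB against control, Trem2 turned to -0.0048 with upper-quartile scaling and -0.038 with the most-read junction. With each library left out, the log2 changes ran from -0.12 to 0.19 for Trem2, -0.10 to 0.29 for C1qb, -0.15 to 0.24 for C1qc, -0.0097 to 0.20 for Ctss, -0.22 to 0.10 for C1qa and -0.76 to 0.27 for Cx3cr1. For P49 against P10, Trem2 ran from -0.017 (without P49 library 1) to 0.40. For bicuculline, Aif1 turned to 0.0023 with the most-read junction and Cx3cr1 ran from -0.84 to 0.16, the latter without bicuculline library 1. The number of called genes among the 9 moved most for P49 against P10, where the reported 2 became 6 with no filter, 4 with the most-read junction, 5 with only the groups compared and 2 to 4 with each library left out. For DRB against control the reported 1 became 2 with no filter (Csf1r added), 2 with the most-read junction (Ctss added) and 1 to 3 with each library left out. For bicuculline the reported 0 became 1 with no filter (Trem2, adjusted p = 0.011), 1 with the replicate block (Trem2, adjusted p = 0.002) and 0 to 4 with each library left out.

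Over all genes of the bicuculline comparison the reported 26 higher and 4 lower became 42 and 20 with no filter and 56 and 34 with the replicate block. The count of lower genes was 0 with DESeq2 and 2 with the most-read junction. With each library left out, 29 to 50 genes were higher and 7 to 26 lower. In those fits the lone library is assumed to vary like the others. Same-letter libraries of the second table did not deviate together (r = 0.046 over 2 pairs and 14390 genes), so the letters were not taken as pairs, and whether they mark pairs is not given in the labels. No paired analysis was made for the first table, because its column names carry numbers that the labels do not explain. The names of the P10 columns differ only in their final digit, and those of the P49 columns also in an earlier one. Whether the P10 libraries share a sample is not given. The cause of these differences was not tested. Depth limits P2ry12 in all cultures and Cx3cr1 in the second experiment.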
